A study of Homo sapiens with 6 samples.

Results

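The salt-inducible kinases, the CRTC coactivators, the CREB-type transcription factors and the NR4A nuclear receptors were examined as 10 genes (SIK1, SIK2, SIK3, CRTC1, CRTC2, CRTC3, CREB1, CREM, NR4A1 and NR4A2) of the 35993 in the gene table. They were chosen by their read counts in the comparison described here, untreated against rhCYGB-treated cells, and by their known roles. Members were found by gene symbol, and each symbol had a single row. The libraries were made from MIA PaCa-2, a human line derived from pancreatic carcinoma, whose growth medium held horse serum at 2.5% beside FBS at 10%. All cells were moved to 1% FBS before and during treatment. There were 3 untreated libraries and 3 from cells given rhCYGB, a 6His-tagged recombinant human cytoglobin made in E. coli, at 4 µM for 48 h. The untreated cells are labelled as control, and a vehicle or inactive protein is not named for them. A single cell line was used, and the labels do not say whether the libraries of a group were separate cultures, so the spread between them may be technical.

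In most cells, cAMP activates protein kinase A, which phosphorylates CREB and the salt-inducible kinases. SIKs are AMPK-related kinases that need the tumor suppressor kinase LKB1. They phosphorylate CRTC coactivators and class IIa histone deacetylases, which 14-3-3 proteins then hold in the cytoplasm. When SIK activity drops or calcineurin removes these phosphates, CRTCs enter the nucleus and join CREB at cAMP response elements (CREs). SIK1, CREM and the NR4A receptors are themselves known as genes induced through CREs, and SIK1 is regarded as a feedback brake on this route. These roles are set by phosphorylation and localization, which mRNA counts do not measure.

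The promoter sequences were taken from RefSeq (GRCh38.p14, windows from 250 bases before to 50 after a start site) because several members that were higher after rhCYGB are textbook CRE genes. They are printed 5′ to 3′ on the strand of the gene, and capitals mark each match to the CRE core TGACG or its complement CGTCA, the full palindrome TGACGTCA giving a match on both strands. SIK1 is shown because it had the largest change of the members, SIK2 and SIK3 as its relatives, CREM at an upstream and at an internal start site, and CRTC1 as the member whose groups overlapped.
SIK1 (chr21:43427082-43427381, minus strand): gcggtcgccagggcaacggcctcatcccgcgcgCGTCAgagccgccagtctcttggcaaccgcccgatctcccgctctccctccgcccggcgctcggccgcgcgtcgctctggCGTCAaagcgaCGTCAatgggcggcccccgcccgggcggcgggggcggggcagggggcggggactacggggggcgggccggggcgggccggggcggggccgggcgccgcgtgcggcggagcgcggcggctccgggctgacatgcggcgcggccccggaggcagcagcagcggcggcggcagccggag
SIK2 (chr11:111602199-111602498, plus strand): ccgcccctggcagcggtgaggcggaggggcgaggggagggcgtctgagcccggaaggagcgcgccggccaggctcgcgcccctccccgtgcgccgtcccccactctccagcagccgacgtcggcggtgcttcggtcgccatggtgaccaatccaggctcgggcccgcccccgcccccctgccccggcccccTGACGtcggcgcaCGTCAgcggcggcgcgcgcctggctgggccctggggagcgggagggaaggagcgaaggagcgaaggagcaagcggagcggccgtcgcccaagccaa
SIK3 (chr11:117098379-117098678, minus strand): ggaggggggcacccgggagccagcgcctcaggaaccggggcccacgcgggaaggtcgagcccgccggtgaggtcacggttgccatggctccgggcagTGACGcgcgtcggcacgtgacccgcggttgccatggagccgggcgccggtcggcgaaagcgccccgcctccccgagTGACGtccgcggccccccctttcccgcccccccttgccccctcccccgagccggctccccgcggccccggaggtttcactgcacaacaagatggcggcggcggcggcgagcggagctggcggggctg
CREM, upstream start (chr10:35126977-35127276, plus strand): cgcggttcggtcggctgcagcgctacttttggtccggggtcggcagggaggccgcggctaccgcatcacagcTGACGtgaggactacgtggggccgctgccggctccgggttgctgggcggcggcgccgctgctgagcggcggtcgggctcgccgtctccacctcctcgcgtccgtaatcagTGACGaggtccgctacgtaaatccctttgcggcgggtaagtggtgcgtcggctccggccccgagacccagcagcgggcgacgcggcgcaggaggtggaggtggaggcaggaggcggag
CREM, internal start (chr10:35195652-35195951, plus strand): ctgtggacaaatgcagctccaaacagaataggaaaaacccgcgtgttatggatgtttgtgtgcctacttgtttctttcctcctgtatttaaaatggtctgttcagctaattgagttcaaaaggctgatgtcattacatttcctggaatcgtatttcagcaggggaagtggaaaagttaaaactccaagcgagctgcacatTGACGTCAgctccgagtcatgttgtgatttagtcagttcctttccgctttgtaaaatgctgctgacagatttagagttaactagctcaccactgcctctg
CRTC1 (chr19:18683430-18683729, plus strand): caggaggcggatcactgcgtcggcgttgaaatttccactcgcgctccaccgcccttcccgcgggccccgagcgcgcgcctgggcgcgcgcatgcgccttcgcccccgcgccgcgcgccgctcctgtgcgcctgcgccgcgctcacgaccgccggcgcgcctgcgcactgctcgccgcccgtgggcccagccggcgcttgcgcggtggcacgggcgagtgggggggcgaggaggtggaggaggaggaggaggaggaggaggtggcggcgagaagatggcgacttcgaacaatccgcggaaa
The table held 15 windows for 8 of the members and none for CRTC2 and NR4A2. The CRE core was found in 7 of the 15 windows and in 5 genes, against 24.6% of all 35116 promoter windows. SIK1 had 3 matches, which began 217, 137 and 126 bases before the start site, and 1.4% of all windows had 3 or more. SIK2 had 2 matches, at 59 and 46 bases before the start, and SIK3 had 2, at 153 and 77 bases. Windows with 2 or more made up 6.02% of the total. CRTC3 had a single match, 181 bases before its start. The full palindrome TGACGTCA occurred only at the internal CREM starts, in 2 overlapping windows that share this one site, and in 1.85% of all windows. The windows of CRTC1 and CREB1 held no match, and neither did 4 of the 7 CREM windows or the 2 NR4A1 windows. By the spacing of start sites, these 2 do not cover the NR4A1 start at 52445186 of the deposited table, which held 50, 52 and 0 counts in untreated and 70, 0 and 115 in treated libraries. The other motif searched, AAAGGTCA, the response element bound by NR4A monomers, was not found on either strand in any member window (1.22% of all windows). A match describes the letters only and is not evidence of binding.

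Depth was similar across the series, with 34838399 to 42271299 read counts on genes per library. Of the 35993 genes, 14728 had enough counts to be tested with edgeR's quasi-likelihood test after TMM scaling. The line's identity was checked on marker genes. VIM, KRT8, KRT18 and KRT19 were abundant, whereas EPCAM and CDH2 had 0 counts in every library and CDH1 was at 0 in 5 of 6. The leukocyte markers PTPRC and CD3E, the endothelial marker PECAM1 and the stromal markers DCN and LUM were at 0 in every library. However, summed over the 3 endothelial markers the level lay between 109 and 122 CPM in untreated and between 10.5 and 13.6 CPM in rhCYGB-treated libraries, almost all of it CDH5. Summed over the 6 stellate cell markers it lay between 144 and 155 against between 11.4 and 13.3 CPM, mostly COL1A2. CD68, the leukocyte list's only gene with counts, had 1335 to 1702 counts in untreated and 2410 to 2652 in treated libraries. The part of these shifts in the results was not tested.

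At the gene level, SIK1, CRTC2 and NR4A1 were called changed, which here means a Benjamini-Hochberg adjusted p under 0.05 from edgeR and a change of 2-fold or more. All 3 were higher after rhCYGB, while 27.1% of all genes tested were called, 12.4% higher and 14.7% lower. Without TMM factors, on total counts, the higher genes made up 33.9% of all called genes instead of 45.8%, and the median of all genes moved by -0.17 on the log2 scale, so smaller differences depend on the scaling. At the adjusted p alone, 8 of the 9 members tested were higher, against 39.0% of all genes tested (38.6% were lower and 77.6% passed in either direction), and CRTC1 did not pass. The groups did not overlap for the same 8 genes, all higher, and this held for 39.8% of all genes tested in the upward and 39.7% in the downward direction. The median log2 fold change of the 9 members was 0.90, and that of all genes tested was -0.0046. NR4A2 had too few counts for the test. Since the members were selected on these same counts, the calls and counts are a description and nothing is read from them about the group. In bulk RNA, a change in the number of cells of a kind and a change in RNA per cell cannot be told apart.

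**Figure D1:**
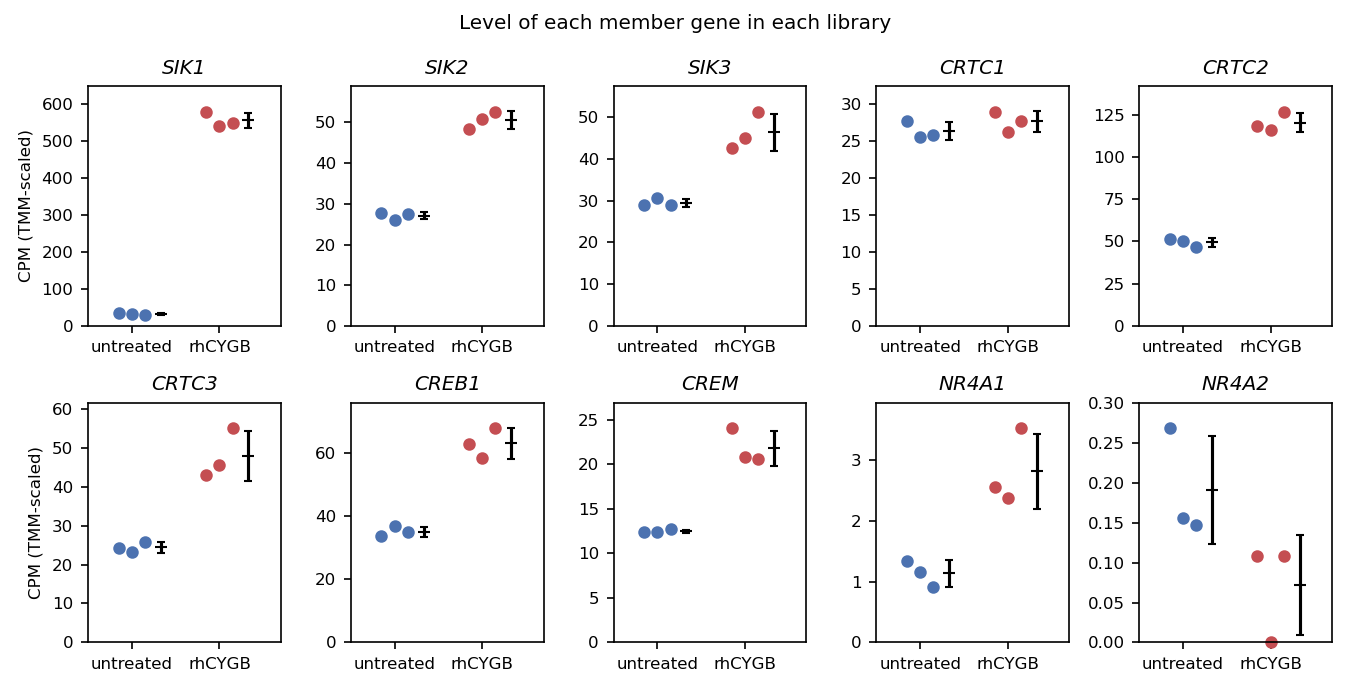
CPM (counts scaled to library size and TMM factor, linear axis from 0) of each member in the 3 untreated (blue) and 3 rhCYGB (red) libraries, with mean ± SD in black. The groups are apart for every gene except CRTC1, upward for 8 genes and downward for NR4A2, whose values rest on at most 10 counts per library.

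The salt-inducible kinases changed by very different amounts. SIK1 (gene 150094, chromosome 21, 44834363 to 44847011 in the deposited transcript table, whose human genome build is not named) had 1326, 1419 and 1210 counts in the untreated libraries and 21470, 17925 and 20196 in the rhCYGB libraries. The rhCYGB libraries were thus all more than 10-fold above the untreated ones, with no overlap. Scaled to library size, the SIK1 level was 32.3 ± 3.01 CPM in untreated and 555 ± 20.5 CPM in treated cells (mean ± SD over 3 libraries, as for all such values). This was a 17.2-fold rise, or 4.10 on the log2 scale (standard error 0.058), and 58 of the 14728 genes tested had a larger rise. GRCh38.p14 lists a further near-identical SIK1 copy (LOC102724428, also called SIK1B), which has no row in the deposited table, so the level of SIK1 may include reads of that copy.

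SIK2, a widely expressed kinase of the same family, had 1036, 1168 and 1117 counts in untreated and 1799, 1689 and 1941 in rhCYGB libraries. Its level went from 27.1 ± 0.912 to 50.6 ± 2.12 CPM, which is 0.90 ± 0.053 (SE) on the log2 scale, so it passed the adjusted p but stayed under 2-fold. SIK3, the third and longest kinase of the family, had 1074, 1368 and 1178 against 1585, 1494 and 1889 counts. It had the smallest of the 3 changes, from 29.4 ± 0.964 to 46.3 ± 4.45 CPM and a log2 fold change of 0.65 (standard error 0.066). For both genes the 2 groups of libraries did not overlap. Both overlap other genes in the deposited table, SIK2 the gene PPP2R1B and SIK3 the genes APOA1-AS, RNY4P6 and RPS27P19. Since the use of strand in the counting is not given in the sources used here, shared reads were not excluded.

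Levels of different genes can be compared per transcript length, for which the deposited FPKM values were used. In untreated cells SIK1 stood at 6.34 ± 0.546 FPKM, SIK3 at 4.37 ± 0.158 and SIK2 at 2.62 ± 0.0912, and these ranges did not overlap. The order was the same after rhCYGB, but the spacing was not, with SIK1 at 97.2 ± 4.87, SIK3 at 6.25 ± 0.659 and SIK2 at 4.37 ± 0.229 FPKM. The FPKM of SIK1 over that of SIK2 was between 2.20 and 2.59 in untreated and between 21.1 and 24.2 in rhCYGB libraries, while the ratio of SIK2 to SIK3 lay between 0.555 and 0.633 and between 0.661 and 0.731. SIK1 therefore made up 45.6% to 50.1% of the summed SIK FPKM in untreated and 89.4% to 91.0% in treated cells. The family sum went from 13.3 ± 0.482 to 108 ± 5.01 FPKM. By mean FPKM among the 14728 genes tested, SIK1 was in place 6848 in untreated and in place 572 in treated cells.

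**Figure D2:**
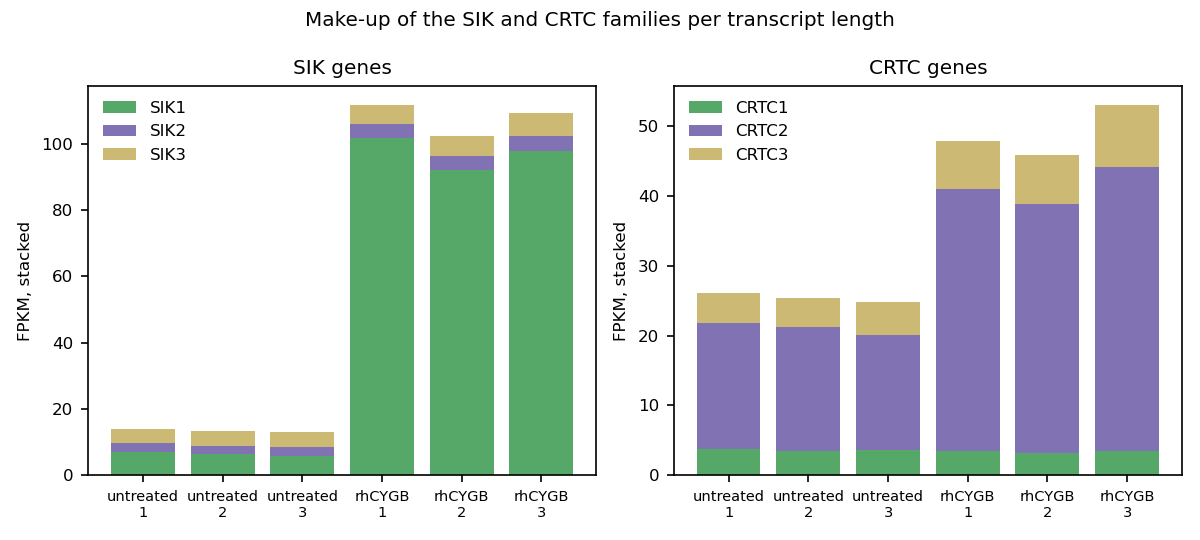
Stacked deposited FPKM of the 3 SIK genes (left) and the 3 CRTC genes (right) in each library, on linear axes from 0. SIK1 fills about the same height as the other SIK genes together in untreated libraries and 89.4% to 91.0% of the bar after rhCYGB, and CRTC2 is the tallest part of every CRTC bar.

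Of the CRTC coactivators, which SIKs phosphorylate, CRTC2 was both the most abundant and the most changed. CRTC2 (gene 200186, chromosome 1, 153920151 to 153931088) had 1913, 2261 and 1893 counts in untreated and 4384, 3851 and 4669 in rhCYGB libraries. It rose from 49.4 ± 2.63 to 120 ± 5.75 CPM, which is 1.28 ± 0.050 (SE) on the log2 scale, with no overlap of the groups. CRTC3 (chromosome 15, 91073155 to 91188577) had 902, 1039 and 1054 against 1597, 1517 and 2028 counts. Its log2 fold change was 0.97 (standard error 0.080), just under 2-fold, and it was called at 2-fold without untreated library 3 (1.02), without rhCYGB library 1 (1.05) or without rhCYGB library 2 (1.00). CRTC3 overlaps its antisense gene CRTC3-AS1 and HSPE1P3.

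CRTC1 (chromosome 19, 18794490 to 18893143), the coactivator best known from neurons and from fusions with MAML2, behaved apart from its relatives. It had 1034, 1144 and 1053 counts in untreated and 1076, 873 and 1022 in rhCYGB libraries, so the groups overlapped. The log2 fold change was 0.07 (standard error 0.060) and became -0.10 with total counts, without a call under either scaling. Per length, CRTC2 was at 17.5 ± 0.795, CRTC3 at 4.36 ± 0.270 and CRTC1 at 3.57 ± 0.147 FPKM in untreated cells, and after rhCYGB CRTC2 lay between 35.7 and 40.8, with CRTC3 at 7.64 ± 1.13 and CRTC1 at 3.34 ± 0.220 FPKM. The share of CRTC1 in the summed CRTC FPKM was 13.6% to 14.3% in untreated and 6.42% to 7.33% in treated libraries. CRTC2 held 67.0% to 70.2% and 76.8% to 78.3%. The untreated FPKM ranges of SIK3 and CRTC3 overlapped, so these genes could not be ordered.

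CREB1 and CREM, the DNA-binding partners, both passed the adjusted p and stayed under 2-fold. CREB1 (chromosome 2, 208394686 to 208470712), an activator that is phosphorylated by protein kinase A, had 1248, 1643 and 1422 counts in untreated and 2331, 1935 and 2495 in rhCYGB libraries. Its level was 33.5, 36.7 and 34.9 CPM against 62.7, 58.2 and 67.7 CPM, with a log2 fold change of 0.84 (standard error 0.059). CREB1 overlaps METTL21A in the deposited table. CREM (chromosome 10, 35415769 to 35501886), which encodes activators and repressors from several start sites, had 460, 554 and 518 against 893, 692 and 757 counts. It went from 12.5 ± 0.201 to 21.8 ± 1.95 CPM, which is 0.81 ± 0.077 (SE) on the log2 scale. In both genes all rhCYGB libraries were above all untreated libraries. Per length the order was reversed, since the CREM level, at 6.20 ± 0.0467 FPKM in untreated cells, was above that of CREB1, at 3.32 ± 0.186, although CREB1 had more counts.

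The NR4A receptors, orphan nuclear receptors that are known as immediate early genes, were weakly expressed at this time point. NR4A1 (Nur77, chromosome 12, 52416616 to 52453291) had 50, 52 and 37 counts in untreated and 95, 79 and 130 counts in rhCYGB libraries. All treated libraries were higher, but the spread was wide, with 1.14 ± 0.218 against 2.82 ± 0.619 CPM and a log2 fold change of 1.31 (standard error 0.23). The 2-fold call was lost with limma on log2(FPKM + 1), where the log2 fold change was 0.41, and on log2(FPKM + 0.1), where it was 0.98. NR4A2 (Nurr1, chromosome 2, 157180949 to 157189233) had 10, 7 and 6 counts in untreated and 4, 0 and 4 counts in rhCYGB libraries. Every treated library was lower, whereas for NR4A1 every one was higher. With the counts of a group summed, 23 against 8, the ratio of treated to untreated was 0.398 (95% exact interval 0.154 to 0.922, counting error only), and without the filter edgeR gave a log2 fold change of -1.33 (standard error 0.90) that did not pass the adjusted p. The 0 in rhCYGB library 2 allows up to 0.0902 CPM. NR4A3, the remaining family member and not among the 10 genes, had 7, 0 and 3 counts in untreated libraries and 0 in each treated library, where a 0 allows up to 0.0902 CPM. It had too few counts for the test, so a difference in NR4A3 was not tested.

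**Figure D3:**
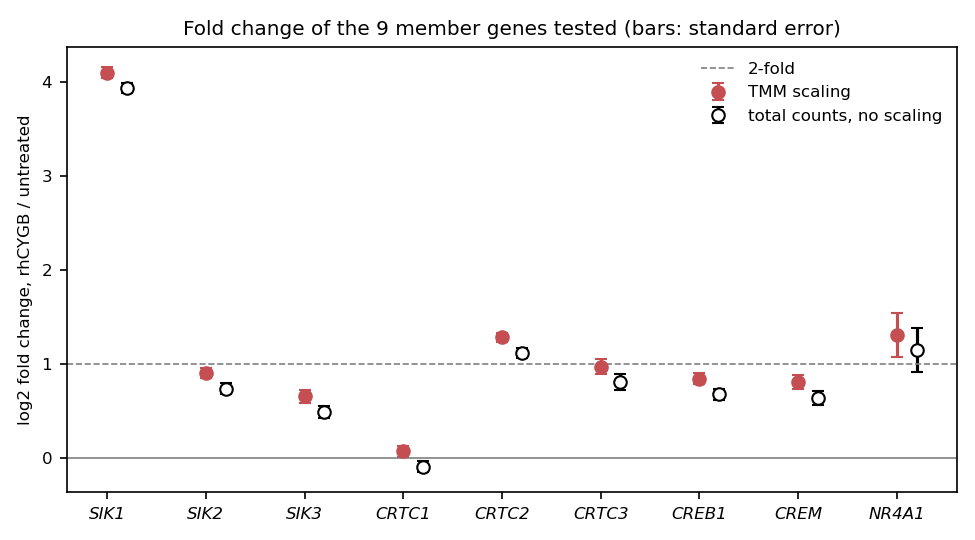
Log2 fold change of rhCYGB over untreated with its standard error for the 9 members tested, with TMM scaling (red) and with total counts (open black), the dashed line marking 2-fold. SIK1 stands at 4.10, CRTC2 and NR4A1 lie above the line, and CRTC1 is at 0.07 with TMM scaling and at -0.10 with total counts.

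The transcript table was used to ask which transcripts carried these changes. It listed 58 transcripts of the 10 genes, 54 of them with counts, and 32 had enough counts to be tested. Among these, 6 were called changed and all 6 were higher, against 8.62% of all transcripts tested called higher and 16.9% called in either direction. Of the 6, CREB1 variants 5 and 6 and CREM variant 18 had 0 counts in every untreated library. They passed the count filter through the treated group alone and could only be called higher, so their direction is not a result. SIK1, SIK2 and CRTC2 have a single transcript each, so their transcript and gene counts are the same. The transcript calls of SIK1 and CRTC2 therefore repeat their gene calls. A transcript's share of its gene passed edgeR's diffSpliceDGE test (adjusted p under 0.05) for 2 of the 28 transcripts that could be tested, against 2.40% of all such transcripts. These were CREM variant 18 and CREB1 variant 6, and at most 1 member transcript passed when any single library was left out. Both entered the test through the treated group alone, with an untreated share of 0, so the direction of their share change was set in advance. StringTie divides reads among overlapping transcripts, and that division was unstable for several members.

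In SIK3, variant 1 (NM_025164) was the only transcript called, with 43, 103 and 71 counts in untreated and 417, 204 and 305 in rhCYGB libraries. Its share of SIK3 counts was 5.99% in untreated and 18.6% in treated cells, although the test of the share did not pass. The main SIK3 transcript, variant 4, held 71.5% and 67.9%. CRTC3 was carried by variants 1 and 2, which were both higher in every treated library and were not called. Variant 1 passed the adjusted p and stayed under 2-fold (log2 fold change 0.61). Variant 2 was past 2-fold (1.29) and did not pass the adjusted p. The only library with more than 2 counts for CRTC1 variant 3 was rhCYGB library 1, with 203.

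CREB1 counts lay mainly on variants 1 and 2, which differ in a small insert, with 47.5% and 45.2% in untreated and 38.9% and 36.3% in treated libraries. Variants 4 and 8, which RefSeq lists as noncoding RNAs, held 3.39% and 3.59% in untreated and 10.2% and 10.8% in treated cells, with 0 counts for both in untreated library 3. Neither variant was called or passed the adjusted p, and the test of the share did not pass for variants 1, 2, 4 or 8. Variants 5 and 6 had 0 counts in all untreated libraries and 14 to 67 counts in the treated ones. Against the floor of 3 counts per library, the treated means gave bounds of at least 12.2-fold and at least 13.2-fold by counting error alone. Bounds were computed only for transcripts picked for their 0 untreated counts, so their size and direction are not results. These bounds do not take in the division of reads among overlapping variants.

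CREM has start sites upstream and inside the gene, the internal ones being known for short repressor forms called ICER, which the table does not mark. Joined within 100 bases, its 31 transcripts fell on 9 start sites. The 11 transcripts from the upstream sites held most counts, 77.1% to 86.5% in untreated and 82.6% to 88.4% in treated libraries. Their summed level was 10.3 ± 0.733 CPM in untreated and 18.6 ± 1.79 CPM in rhCYGB-treated cells, and the groups did not overlap. The 12 transcripts from the internal sites near the downstream end had 58, 126 and 63 counts in untreated and 121, 77 and 113 counts in treated libraries. At 1.97 ± 0.728 against 2.88 ± 0.498 CPM, these groups overlapped. By the spacing of start sites, the internal window with the full palindrome printed above belongs to this block. The upstream window printed above, with 2 core matches, belongs to the start at 386 bases, whose counts also overlapped (59, 37 and 32 against 49, 9 and 16). Counts at the site 160 bases after the first start were 114, 63 and 109 in untreated and 349, 307 and 244 in treated libraries, the largest difference of any CREM site. The promoter window at this site held no CRE core. No window matched the first start exactly by spacing, and the nearest one, at -155 bases from this site, also held no core. Counts at the first start, 123, 153 and 119 against 222, 236 and 191, did not overlap either. At the site 160 bases after the first start, variant 18 (NM_001352466) had 0 counts in each untreated library and 121, 90 and 77 in the treated ones. Against the floor of 3 counts per library, its treated mean gave a bound of at least 36.4-fold by counting error alone. The variant was picked for its 0 untreated counts, so the size and direction of this bound are not results. That bound does not take in the division of reads among overlapping variants, and variant 32 from this site had 65, 0 and 0 untreated counts. Variant 23, from the same site, had 0, 0 and 30 against 117, 56 and 81 counts and was not called, and variants 19, 24 and 32 had overlapping groups.

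**Figure D4:**
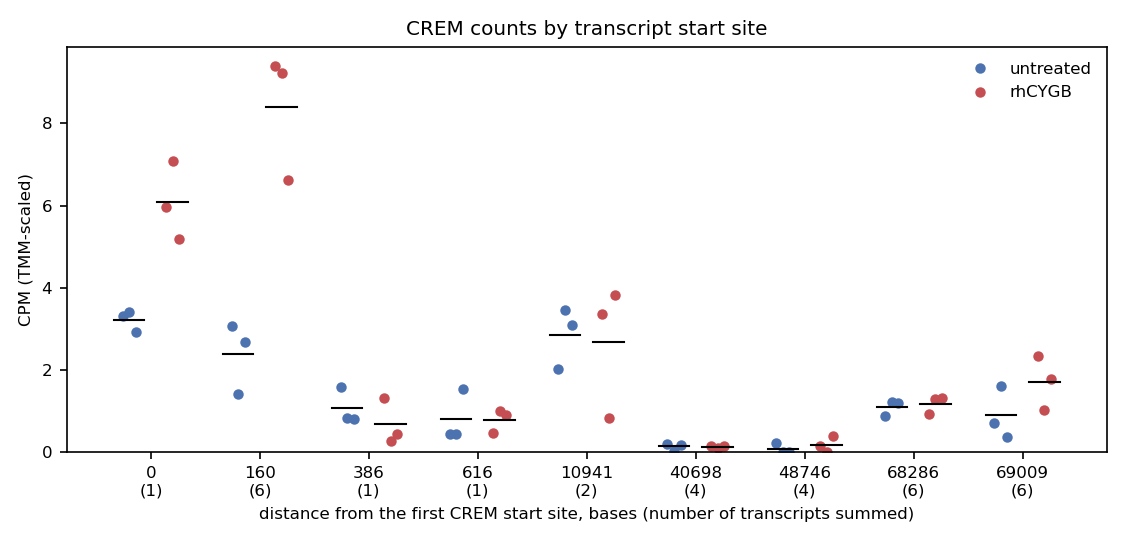
CREM CPM (linear axis from 0) summed over the transcripts of each start site, ordered by distance in bases from the first start, with the number of transcripts in brackets and bars for the mean of 3 libraries. The sites at 0 and 160 bases separate untreated (blue) from rhCYGB (red) libraries, and the internal sites from 68286 bases onward overlap.

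For NR4A1 the division among transcripts differed from library to library. Variant 1 took 100% of the counts in untreated library 2, variant 4 took 100% in untreated library 3 and in rhCYGB library 2, and variant 2 led in rhCYGB libraries 1 and 3. With 37 to 130 counts per library, no start site of NR4A1 could be said to differ. The FPKM values of NR4A1 depend on this division through the transcript length.

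The other genes of the pathway were taken as 8 lists holding 108 genes, of which 81 were tested. In these lists 18 genes were called higher and 4 lower, while 12.4% and 14.7% of all genes tested were called in these directions. The median log2 fold change over the 81 genes was 0.28.

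Among partners of CREB, 2 of 8 genes were called higher and 7 of 8 were higher at the adjusted p alone, against 39.0% of all genes tested. ATF7, a CRE-binding factor of the ATF2 group, went from 21.5 ± 1.96 to 49.3 ± 5.86 CPM (log2 fold change 1.20, standard error 0.083). CREBBP, the acetyltransferase that binds phosphorylated CREB, went from 68.4 ± 2.17 to 141 ± 16.3 CPM (log2 fold change 1.04, standard error 0.065). CREBBP was just past 2-fold and not called with upper-quartile factors (0.90), with total counts (0.88), with limma on log2(FPKM + 1) (0.78) or log2(FPKM + 0.1) (0.86), or without rhCYGB library 3 (0.95), while it passed the adjusted p in each. Of the RXR partners of NR4A receptors, RXRA had a log2 fold change of -0.23, past the adjusted p. RXRB, at 0.16, also passed, but this is less than the shift between scalings, and RXRG had 0 counts.

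Upstream, the list of cAMP and protein kinase A genes had more genes lower than higher. Of its 14 tested genes, 9 were lower and 3 higher at the adjusted p alone, where 38.6% of all genes tested were lower and 39.0% higher, and the median log2 fold change was -0.37. PRKACA, the main catalytic subunit of protein kinase A, had 3294, 3904 and 3582 counts in untreated and 998, 1002 and 1113 in treated libraries. It was the only gene of the list called, at -1.60 ± 0.052 (SE) on the log2 scale, with an edgeR adjusted p = 4.29e-13. Among the phosphodiesterases that break down cAMP, 9 of 16 were tested. PDE2A was called higher, from 13, 17 and 12 counts to 101, 66 and 92 (log2 fold change 2.80, standard error 0.27), and PDE4A was called lower, from 123, 107 and 104 to 47, 27 and 43 counts (log2 fold change -1.33, standard error 0.23). PDE2A overlaps MIR139 in the deposited table, as ATF7 does ATF7-NPFF and LOC100652999, RXRA MIR4669, STK11 CBARP, PER1 MIR6883 and PPP3CC BTF3P3.

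All 16 genes of the LKB1 complex and of the AMPK-related kinases, the wider family of the SIKs, were tested. Of these, 6 were called higher and 1 lower, against 12.4% and 14.7% of all genes tested, and the median log2 fold change was 0.80. Among the 6, MARK1 rests on few counts, with 0, 14 and 6 in untreated and 15, 17 and 18 in treated libraries. NUAK2 went from 13.5 ± 0.765 to 47.2 ± 3.35 CPM (log2 fold change 1.81 ± 0.067 (SE) with an edgeR adjusted p = 1.84e-12), and the brain-enriched kinase BRSK1 from 2.41 ± 0.148 to 7.41 ± 1.23 CPM (log2 fold change 1.62). None of these kinases came near the change of SIK1. LKB1 itself, the gene STK11, did not pass, with a log2 fold change of 0.06 (standard error 0.046). Its pseudokinase partner STRADB fell from 40.1 ± 0.811 to 14.9 ± 1.46 CPM (log2 fold change -1.42 ± 0.068 (SE) with an edgeR adjusted p = 3.22e-11).

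Of the class IIa histone deacetylases, their MEF2 partners and the 14-3-3 proteins, 13 genes were tested. In this list 3 were called higher, against 12.4% of all genes tested. At the adjusted p alone 6 were higher and 4 lower, against 39.0% and 38.6% of all genes tested, and the median log2 fold change was 0.09. HDAC5, a SIK substrate, rose from 24.5 ± 1.51 to 68.1 ± 0.788 CPM (log2 fold change 1.47), and MEF2D, a factor it represses, rose from 50.4 ± 2.32 to 156 ± 9.26 CPM (log2 fold change 1.63). HDAC5 overlaps LOC105371789. Of calcineurin and its regulators, 2 of 6 tested genes were called higher, against 12.4% of all genes tested. RCAN1, an inhibitor of calcineurin, rose from 147 ± 4.65 to 500 ± 5.80 CPM (log2 fold change 1.76 ± 0.037 (SE) with an edgeR adjusted p = 4.74e-15), and the catalytic subunit PPP3CC had a log2 fold change of 1.48. The catalytic subunits went different ways, with PPP3CB lower (-0.56) and PPP3CA higher (0.34), both past the adjusted p and under 2-fold.

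Known CREB target genes other than the members were split. Of the 20 listed, 13 were tested, and 4 were called higher and 1 lower, against 12.4% and 14.7% of all genes tested. A further 6 had 0 counts in every library, among them PPARGC1A and PCK1. The clock gene PER1 had 563, 714 and 575 counts in untreated and 5532, 4576 and 5721 in treated libraries, or 3.29 ± 0.060 (SE) on the log2 scale, with an edgeR adjusted p = 9.86e-16. IRS2, an adaptor of insulin signaling, had 823, 869 and 719 against 5000, 4308 and 5215 counts, or 2.78 ± 0.066 (SE) on the log2 scale, with an edgeR adjusted p = 1.51e-14. INHA, the inhibin alpha subunit, had 50, 43 and 48 against 7, 5 and 10 counts, or -2.48 ± 0.37 (SE) on the log2 scale, with an edgeR adjusted p = 1.76e-05. FOS, a classical CRE target, had overlapping groups and a log2 fold change of -0.13 (standard error 0.19).

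**Figure D5:**
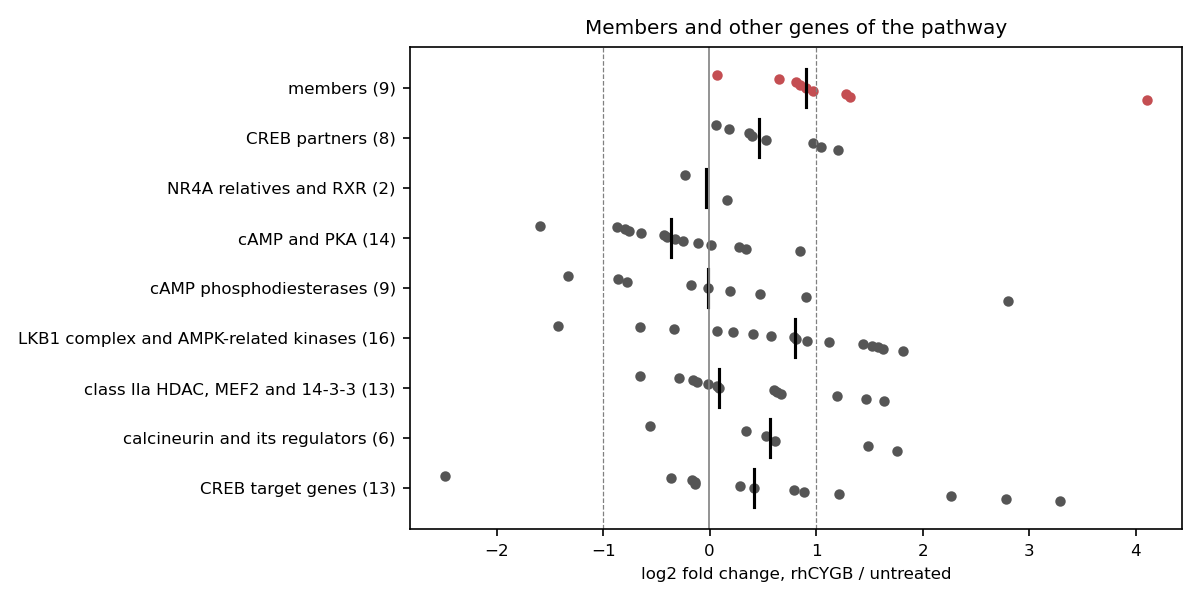
Log2 fold change of each tested gene in the members (red) and in the 8 pathway lists (grey), with the number tested in brackets, black bars for the medians, a grey line at the median of all genes tested and dashed lines at 2-fold. The cAMP and PKA list has its median at -0.37, the LKB1 and AMPK-related kinases at 0.80 and the members at 0.90.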

How the data were processed

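RNA of 6 MIA PaCa-2 samples was sequenced by the authors from stranded, paired-end mRNA libraries. Per the labels and the study's methods, reads were checked with FastQC 0.11.7, mapped with HISAT2 2.1.0 and assembled with StringTie 2.1.3b. The submitters' processing notes name mm10, a mouse build, although the table holds human genes. The deposited transcript positions reach 249231298 on chromosome 1, past the last GRCh38 gene end at 248937099, so the build is uncertain and positions are given as deposited. GRCh38.p14 sequences were linked to CREM and NR4A1 starts by the spacing of start sites alone. The authors deposited read counts per gene and transcript, not normalized, and FPKM values scaled to length and depth. The deposited TPM values were not used.

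Counts were fitted on whole tables with edgeR 4.0.16 in R 4.3.3 (filterByExpr, TMM, glmQLFit, glmQLFTest, group only), with Benjamini-Hochberg adjustment over all genes or transcripts tested, and transcript shares with diffSpliceDGE. The common dispersion gave a coefficient of variation of 5.48% between libraries of a group. Fits were run on simulated counts only to see whether known changes were recovered. The simulated transcript shares had a capped spread, so this says nothing about power for the transcript shares here. Alternatives used DESeq2 1.42.0, limma 3.58.1, other scalings, filters, a replicate block and each library left out. No libraries of a group were copies (chi-square over degrees of freedom 4.81 to 6.88). Named list genes were the 2 called genes with the largest rise and the 2 with the largest fall in each list. Transcripts named held at least 10% of their gene's counts in a group. Other list genes and transcripts named were chosen after their values were seen. Members and lists were chosen with earlier results of these data known. The floor is 3 counts. Without molecular identifiers, floors and intervals take in counting error alone.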

Additional observations from a re-analysis of the deposited data

How the results depend on the processing

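Of 383 values of single genes under 16 alternatives, 379 kept their direction and their side of the adjusted p. The other 4 were CRTC1, whose log2 fold change turned to -0.072 with upper-quartile factors, -0.096 with total counts, -0.075 with limma on log2(FPKM + 1) and -0.095 with log2(FPKM + 0.1), without a call in any. The other 8 members tested stayed positive throughout, and SIK1 lay between 3.74 and 4.17 over the alternatives. The 3 members called were 3 to 4 when a library was left out, and 8 at the adjusted p alone. The 22 pathway genes called were 20 to 22 when a library was left out, 15 with limma on log2(FPKM + 1), 19 on log2(FPKM + 0.1), and 68 at the adjusted p alone. With log2(FPKM + 1), PDE2A (0.45), PDE4A (-0.36), BRSK1 (0.77) and INHA (-0.67) stayed under 2-fold. Over all genes, limma on log2(FPKM + 1) called 1977 in place of 3998. Transcript results were less stable. The 6 transcripts called were 4 to 8 with a library left out. The 2 shares that passed edgeR's diffSpliceDGE test were 0 to 1 with a library left out (0 without untreated library 2 or 3 or rhCYGB library 1), 1 with no filter, and 1 with at least 10 counts in every library. Same-numbered libraries did not deviate together (correlations from -0.048 to 0.0072), so the numbers were not taken as pairs. With the replicate block, 3 transcripts and 1 share were called, and the counts of members (3) and pathway genes (22) did not move. Depth limits NR4A2, with at most 10 counts per library, and the start sites of NR4A1, with 37 to 130 counts for the gene.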
